A study of Mus musculus with 7 samples.

Results

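Krt8 and Krt19 are 2 keratins of simple epithelia and mesothelia, Gdf10 a secreted factor of the TGF-beta superfamily and Ccl21a a chemokine. They were followed across 4 Myc-null and 3 wild-type samples of mouse embryonic heart. The 4 genes are among 7413 that could be named on the array, and they were selected on their measured values in these same 7 samples, as genes that mark which tissues a dissected heart contained. Their levels are therefore given as a description, with no test. Their NCBI mouse gene identifiers are 16691 (Krt8), 16669 (Krt19), 14560 (Gdf10) and 18829 (Ccl21a). They have 5 targets, where a target is the oligonucleotide carried on many beads that reports 1 transcript, and 4 of the 5 were bright enough to enter the comparison of 9066 units, a unit being 1 named gene or 1 unnamed target.

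Each sample was RNA of a whole heart, dissected from an embryo of the Myc-null or the wild-type group, and put in Trizol. Myc encodes a transcription factor known for promoting cell growth. The sample titles give the stage as E13.5 (E for embryonic day), and another label gives E12.5-E15.5. The labels speak of cardiac myocyte RNA but describe no separation of cells, and they do not give the allele, the driver of any Cre, the strain, the litters or whether hearts were pooled. Whether Myc was missing from the whole embryo or only from some of its cells is therefore not known. All errors below describe how these 7 samples varied, which may be technical, and the small number of arrays limits the precision. In bulk tissue, fewer cells of a type and less RNA per cell cannot be told apart.

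Keratins form filaments only as pairs of a type II and a type I chain, and in simple epithelia and in the mesothelium that covers internal organs the usual pair is Krt8 with Krt18, often with Krt19 added. The outer layer of the embryonic heart, the epicardium, is a mesothelium and is the usual place of these keratins in the heart. Gdf10, also called Bmp3b, is a divergent member of the bone morphogenetic proteins, made by mesenchyme of bone, cartilage and other organs. Ccl21a encodes the chemokine CCL21, which binds the receptor Ccr7 and guides dendritic cells and lymphocytes. Mouse has several near-identical Ccl21 genes, expressed in lymphoid organs and in lymphatic vessels.

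All 7 arrays were on 1 chip, with Myc-null hearts at positions E to H and wild-type hearts at positions A to C, so position and genotype cannot be told apart. They detected 8573 to 9678 of 24048 targets each. Arrays are numbered as in the sample titles. Myc-null 2 and wild-type 3 stood apart from the rest: over all tested units wild-type 3 correlated with the other arrays at 0.927 to 0.938, Myc-null 2 with the remaining 5 at 0.961 to 0.973, and those 5 among themselves at 0.979 to 0.991. The 18S ribosomal RNA target read 1523 on Myc-null 2 and 2682 on wild-type 3, against 702 to 914 on the other 5. The heart muscle genes marked the tissue on all 7 arrays, with Myh7 (beta myosin heavy chain) at 43607 to 72119 in Myc-null and 42504 to 68137 in wild-type hearts. All signals are the normalized intensity deposited by the authors. The differences of the 4 genes are given with and without Myc-null 2 and wild-type 3, and so are other values where leaving these arrays out turned the direction or moved a value by much.

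Krt8 was measured on all 7 arrays by 1 of its 2 targets. The signal was 108, 352, 84.3 and 65.7 in Myc-null hearts 1 to 4, against 118, 172 and 426 in wild-type hearts 1 to 3. Myc-null 2 and wild-type 3 were the high arrays, and the groups overlapped only through Myc-null 2: the other 3 Myc-null hearts lay below every wild-type heart. The means were 152 ± 134 in Myc-null (SD, n = 4) and 239 ± 165 in wild-type hearts (SD, n = 3). The log2 difference, Myc-null minus wild-type, was -0.77 (SE 0.68, 95% interval -2.38 to 0.84). It was -1.29 without Myc-null 2, -0.24 without wild-type 3 and -0.76 without both. The other target of Krt8 read only 0.563 to 20.4 in Myc-null and 6.75 to 20.0 in wild-type hearts. It was detected on 0 of 7 arrays, with a highest detection score of 0.943 where 0.99 was required, so the targets of Krt8 disagree and the gene's values rest on 1 of them.

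Krt19 was the gene of the 4 whose groups did not overlap. Its signal was 101, 89.2, 50.7 and 70.4 in Myc-null hearts 1 to 4, against 105, 113 and 169 in wild-type hearts. Every Myc-null heart lay below every wild-type heart, but Myc-null 1 and wild-type 1 differed by little, and Myc-null 3 was under the detection threshold (score 0.988). The means were 77.9 ± 22.2 in Myc-null and 129 ± 34.7 in wild-type hearts (SD, n = 4 and n = 3). The log2 difference was -0.69 (SE 0.25, 95% interval -1.28 to -0.10), and it was -0.76 without Myc-null 2, -0.48 without wild-type 3 and -0.55 without both. Of all tested units, 2.83% had every Myc-null array below every wild-type array and 4.3% had every Myc-null array above. With no normalization the groups of Krt19 overlapped, at raw signals of 222.2 in Myc-null 1 and 202.9 in wild-type 2, while quantile normalization, scaling to the median and neqc kept them apart. In the authors' deposited table of difference scores, whose direction is not named, Krt19 had a score of -14.9, and 0.424% of targets had -13 or lower. The same table gave the tested target of Krt8 -3.25, Gdf10 -1.73 and Ccl21a -1.24.

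Gdf10 had the widest range of the 4 genes, with the highest array 20.9 times the lowest. Its signal was 133, 937, 190 and 64.6 in Myc-null hearts 1 to 4, against 143, 130 and 1353 in wild-type hearts. One heart of each group was high: Myc-null 2 was 7.26 times the mean of the other Myc-null hearts, and wild-type 3 was 9.9 times the mean of the other wild-type hearts. The remaining 5 hearts lay between 64.6 and 190 and the groups overlapped. The means were 331 ± 407 in Myc-null and 542 ± 702 in wild-type hearts (SD, n = 4 and n = 3), with a log2 difference of -0.57 (SE 1.15, 95% interval -3.31 to 2.17). That difference was -1.32 without Myc-null 2, 0.54 without wild-type 3, -0.21 without both and -0.03 without Myc-null 4, so its sign and size were set by single arrays.

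Ccl21a was high on the same arrays. Its signal was 77.7, 335, 157 and 82.7 in Myc-null hearts 1 to 4, against 76.3, 68.7 and 523 in wild-type hearts. Myc-null 2 was 3.17 times the mean of the other Myc-null hearts and wild-type 3 was 7.22 times the mean of the other wild-type hearts, and the groups overlapped. Myc-null 3 was the third highest, for Ccl21a as for Gdf10. The means were 163 ± 120 in Myc-null and 223 ± 260 in wild-type hearts (SD, n = 4 and n = 3). The log2 difference was -0.05 (SE 0.85, 95% interval -2.08 to 1.98), and it was -0.48 without Myc-null 2, 0.91 without wild-type 3, 0.47 without both, 0.22 without Myc-null 1 and 0.19 without Myc-null 4. Leaving out wild-type 1 gave -0.48 and leaving out wild-type 2 gave -0.56.

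**Figure D1:**
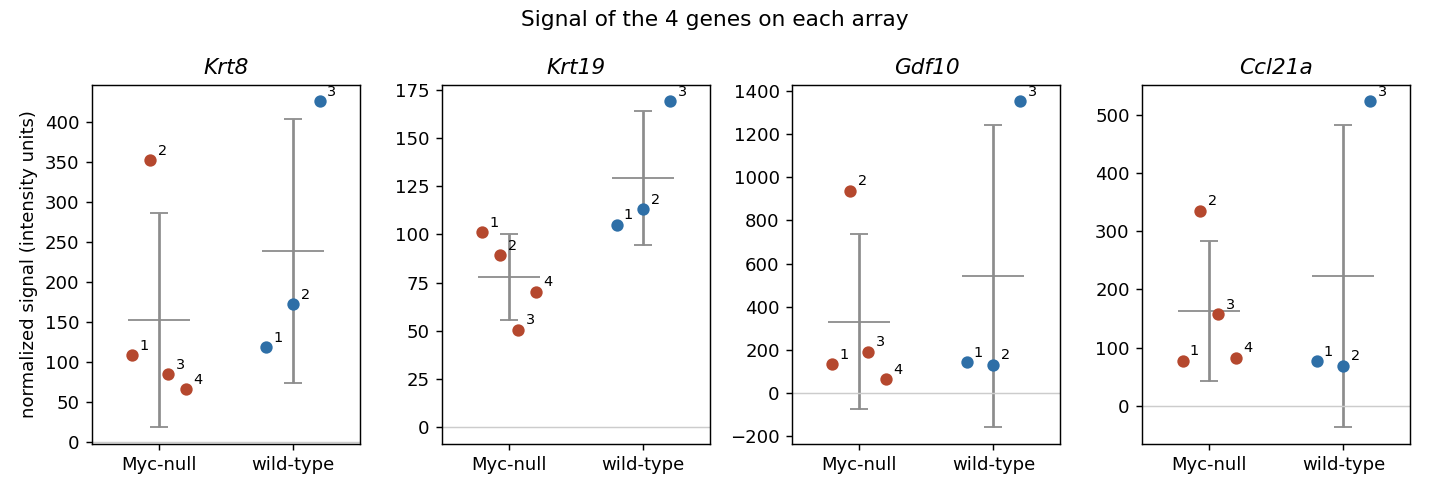
Normalized signal (intensity units, linear axis, a separate scale in each panel) of Krt8, Krt19, Gdf10 and Ccl21a on each array. Points are arrays with their replicate number, horizontal lines are group means and bars are 1 SD (Myc-null n = 4, wild-type n = 3). Myc-null 2 and wild-type 3 are far above the other arrays for Krt8, Gdf10 and Ccl21a, while for Krt19 all Myc-null points are below all wild-type points.

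For Gdf10 and Ccl21a the spread between beads was small beside the gap between the high arrays and the rest. For Gdf10 the raw signal was 1062.7 on Myc-null 2, with a bead deviation of 26.7 over 38 beads, and 1780.4 on wild-type 3, with a deviation of 55.3 over 32 beads. For Ccl21a the raw signal was 448.1 (deviation 21.0, 41 beads) on Myc-null 2 and 755.7 (deviation 36.6, 47 beads) on wild-type 3. The file headers do not say whether the deviation is that of single beads or of their mean. For Krt19 it was not. The arrays that set the gap between its groups, Myc-null 1 (normalized signal 101) and wild-type 1 (105), had raw signals in the opposite order, 222.2 on Myc-null 1 and 218.1 on wild-type 1, and bead deviations of 5.85% and 5.27% of these raw signals, more than the gap.

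No unit passed the comparison of Myc-null with wild-type hearts: by limma with Benjamini-Hochberg adjustment, 0 units had a higher and 0 a lower level past an adjusted p of 0.05 (0.0% of units each way), the smallest adjusted p was 0.76, and 485 units (5.35%) had an unadjusted p under 0.05. All 4 genes had a lower mean log2 signal in Myc-null hearts, as had 45.5% of units, and since the genes were chosen on this contrast nothing is read from that count. Myc-null 2 and wild-type 3 were the highest arrays for 3 of the 4 genes, against 13.1% of units. Both were at least 1 (log2) above the median of the 7 arrays for Krt8, Gdf10 and Ccl21a, against 0.463% of units. The genes were chosen on their values in these same samples, so nothing is read from these counts either. Myc-null 2 and wild-type 3 belong to opposite genotypes. By the same distance from the median, 1.65% of units were high on Myc-null 2 and 0.982% on wild-type 3. The other arrays had 0.154% on Myc-null 1, 0.0993% on Myc-null 3, 0.199% on Myc-null 4, 0.0552% on wild-type 1 and 0.154% on wild-type 2.

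The height of these arrays did not come only with the deposited scaling. For Gdf10 the deviation from the median was 2.71 on Myc-null 2 and 3.24 on wild-type 3 as deposited (log2), 2.01 and 2.54 on those arrays after quantile normalization, and 2.54 and 3.12 with neqc. For Ccl21a it was 2.02 on Myc-null 2 and 2.66 on wild-type 3 as deposited, and 1.16 and 1.79 after quantile normalization. For Krt8 it was 1.57 on Myc-null 2 and 1.85 on wild-type 3, and 0.96 and 1.31 after quantile normalization. Krt19 went another way: wild-type 3 was its highest array, at 0.74, but Myc-null 2 was at -0.18, below 4 of the other arrays. The part of RNA quality in these values was not tested, and the 18S readings above were high on the same arrays.

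The stretch of 250 bases upstream of the annotated start is shown for the 3 genes that shared their high arrays, from RefSeq on GRCm38.p6, read 5' to 3' on the gene's strand. Capitals mark matches to the GC box, searched as GGGCGG on both strands and here seen as its complement CCGCCC. Also searched on both strands were the TATA box (TATAAA), the CCAAT box (CCAAT), the AP-1 site (TGANTCA) and the E-box of Myc (CACGTG). The windows are chr15:102004343-102004592 (minus strand) for Krt8, chr14:33923337-33923586 (plus strand) for Gdf10 and chr4:42773992-42774241 (minus strand) for Ccl21a.
Krt8: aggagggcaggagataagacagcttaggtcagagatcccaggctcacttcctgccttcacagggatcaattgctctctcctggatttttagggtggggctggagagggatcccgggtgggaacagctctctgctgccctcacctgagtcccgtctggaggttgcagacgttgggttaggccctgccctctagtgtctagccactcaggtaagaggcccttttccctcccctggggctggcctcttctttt
Gdf10: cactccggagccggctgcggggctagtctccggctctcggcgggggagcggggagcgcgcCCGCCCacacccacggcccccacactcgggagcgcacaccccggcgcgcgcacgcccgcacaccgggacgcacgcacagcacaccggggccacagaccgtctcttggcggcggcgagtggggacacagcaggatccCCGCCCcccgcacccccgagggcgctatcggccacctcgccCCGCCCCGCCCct
Ccl21a: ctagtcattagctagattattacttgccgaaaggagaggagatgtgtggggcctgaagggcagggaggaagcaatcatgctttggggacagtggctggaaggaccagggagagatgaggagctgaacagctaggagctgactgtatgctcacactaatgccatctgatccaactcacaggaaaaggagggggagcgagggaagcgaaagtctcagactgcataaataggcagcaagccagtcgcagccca

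The promoter windows have little in common. That of Gdf10 is 78.8% G and C, with 35 CpG and 4 GC boxes, at -190, -54, -13 and -8 from the start, the last pair overlapping. Those of Krt8 (58.0% G and C, 3 CpG) and Ccl21a (52.8% G and C, 4 CpG) hold none of the 5 motifs. Among 32851 such windows of the mouse genome, 32.7% hold the GC box, 12.4% the TATA box, 33.8% the CCAAT box, 6.75% the AP-1 site and 6.02% the E-box. A match is a run of letters and not a measured binding site.

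Krt18, the type I partner of Krt8, had a signal of 151, 220, 108 and 140 in Myc-null hearts 1 to 4, against 174, 212 and 216 in wild-type hearts. Its highest arrays were Myc-null 2 and wild-type 3, as for Krt8, but by far less: 0.34 and 0.31 (log2) above the median on those arrays, with wild-type 2 close behind at 0.28. The log2 difference was -0.42 (SE 0.24, limma adjusted p = 0.76). The log2 ratio of Krt8 to Krt18 was -0.48, 0.68, -0.36 and -1.09 in Myc-null hearts, against -0.56, -0.30 and 0.98 in wild-type hearts. The ratio between different targets has no absolute meaning, but it was higher on Myc-null 2 and wild-type 3 than on any other array, so the 2 keratins differed from array to array by unequal amounts. Of 17 other keratins named on the array only Krt18 and Krt10, a keratin of stratified epidermis, were tested, and 0 passed in either direction. Krt10 had 186, 170, 114 and 164 in Myc-null and 166, 166 and 71.0 in wild-type hearts, with a log2 difference of 0.32 that was -0.09 without wild-type 3. A further 12 keratins were detected on 0 arrays, as were 52.3% of all named targets on the chip.

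Tested markers of the tissues that carry these keratins were mostly more even. Of 12 named epicardial and mesothelial genes 7 were tested and 0 passed in either direction, 5 having higher and 2 lower means in Myc-null hearts, with a median log2 difference of 0.12 (0.01 without Myc-null 2) against 0.03 over all units. None of the 7 had Myc-null 2 and wild-type 3 as its highest arrays, but only 13.1% of all units had. With 7 genes nothing is read from that. Wt1, a transcription factor of the epicardium, had 478, 502, 559 and 482 in Myc-null hearts, against 515, 429 and 418 in wild-type hearts. Cav1, a coat protein of membrane pits, and Igfbp5, a binding protein of insulin-like growth factors, were the brightest of the list, with log2 differences of 0.26 (SE 0.16) and 0.21 (SE 0.26), that of Igfbp5 being 0.01 without Myc-null 2. Upk3b, a mesothelial membrane protein, had 861, 964, 558 and 526 in Myc-null and 974, 580 and 1145 in wild-type hearts. Its highest Myc-null heart was Myc-null 2 and its highest wild-type heart wild-type 3, as for Igfbp5. Lrrn4, a listed gene too dim to be tested, was detected on Myc-null 2 (49.5) and wild-type 3 (45.3) only. Gpm6a, another such gene, was detected on wild-type 1 (52.1) and wild-type 2 (57.2) only. The summed signal of the 7 tested genes was 10488 to 14993 in Myc-null and 10458 to 12692 in wild-type hearts. Of the Myc-null hearts it was highest in Myc-null 2 (14993, with 14222 in Myc-null 4). Of the wild-type hearts it was highest in wild-type 3 (12692, against 11735 and 10458). Igfbp5 alone read 9500 on Myc-null 2 and 6149 on wild-type 3.

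Of 13 named general epithelial genes 8 were detected on 0 arrays, among them the epithelial transcription factors Elf3 and Ehf and the protease St14, where 55.1% of all targets on the chip were detected on 0 arrays. The tested genes were 4, and 0 passed. Lama5, a laminin chain of basement membranes that is not confined to epithelium, had a log2 difference of 0.04 (SE 0.12), and -0.01 without wild-type 3. The summed signal of the 4 was 1009 to 1174 in Myc-null and 994 to 1038 in wild-type hearts. Cldn4, a tight junction claudin of epithelia, was detected on 3 arrays and read 42.6, 122, 36.8 and 63.1 in Myc-null and 45.4, 34.1 and 93.8 in wild-type hearts. Its highest arrays were thus Myc-null 2 and wild-type 3, and it was singled out after its values were seen.

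Some markers of neighbouring organs were detected on Myc-null 2, on wild-type 3 or on both, and on no other array, and these too were looked at after their values were seen. Nkx2-1, a transcription factor of lung, thyroid and forebrain, read 34.2, 386, -12.1 and -18.9 in Myc-null hearts, against -12.2, -16.0 and 110 in wild-type hearts. It was detected on Myc-null 2 and wild-type 3 and on no other array. Tbx1, a regulator of the pharyngeal region, was detected on those same arrays by 1 of its 2 targets, at 60.8 on Myc-null 2 and 61.7 on wild-type 3. These readings lie just above the floor of 58.2. Pax1, of pharyngeal pouches and vertebral precursors, was detected on Myc-null 2 only, at 81.6, and Krt17, a keratin of basal and stressed epithelia, on wild-type 3 only, at 102. In all, 20 listed genes were detected on only 1 or 2 arrays, 8 of them on Myc-null 2 and 14 on wild-type 3, against at most 4 on any other array. These arrays lead over the whole chip too: of 1346 targets detected on 1 or 2 arrays, 41.9% were detected on Myc-null 2 and 49.4% on wild-type 3, against 6.69% to 14.0% on each of the others.

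Other markers of those organs followed in part. Of 8 named foregut, lung and liver genes 3 were tested, 0 passed, and the summed signal was 362 to 623 in Myc-null and 339 to 603 in wild-type hearts. It was lowest of the Myc-null hearts in Myc-null 2 (362) but highest of the wild-type hearts in wild-type 3 (603, against 339 and 376). Apoa2, an apolipoprotein of liver, had 275, 111, 175 and 174 in Myc-null and 89.1, 109 and 223 in wild-type hearts. Apoa1, another apolipoprotein, and Trf, the transferrin of plasma, were likewise highest of the wild-type hearts in wild-type 3, at 245 and 135. Of 10 thymic and pharyngeal genes 0 were tested and 8 were detected on 0 arrays, where 52.3% of all named targets were detected on 0 arrays. Fgf10, a growth factor of lung and limb mesenchyme, read 57.7, 190, 42.8 and 50.3 in Myc-null and 15.7, 52.7 and 60.4 in wild-type hearts, so that its highest arrays were Myc-null 2 and, by a narrow margin, wild-type 3. Tbx5, a transcription factor of heart, lung and forelimb, stayed near the floor of 58.2 that was set for the log scale, at 44.8 to 72.6 in Myc-null and 65.6 to 74.6 in wild-type hearts. The part of neighbouring tissue in the levels of Krt8, Gdf10 and Ccl21a was not tested.

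Around Gdf10, the TGF-beta superfamily showed no call in any of its layers. Of 13 named ligands 4 were tested, 1 with a higher and 3 with lower means in Myc-null hearts (median log2 difference -0.08). Without wild-type 3 that median was 0.12, with 3 higher and 1 lower, so its direction turned on 1 array. Gdf1, Bmp1 and Tgfb3 had Myc-null 2 and wild-type 3 as their highest arrays, against 13.1% of all units. Bmp1, a protease that trims collagens and frees growth factors, had 415, 601, 442 and 345 in Myc-null and 378, 441 and 552 in wild-type hearts. Tgfb2, a signal in valve formation, had 880, 1216, 1177 and 1303 in Myc-null and 904, 1187 and 718 in wild-type hearts, with wild-type 3 the lowest array. Among 5 tested receptors 4 had higher means, and Tgfbr1, the type I receptor for TGF-beta, had a log2 difference of 0.60 (SE 0.30, limma adjusted p = 0.76) with wild-type 3 again lowest, at 483 against 980 and 1097 in the other wild-type hearts. Without that array the difference was 0.23. Acvr1, a type I receptor for bone morphogenetic proteins, differed by 0.06 (SE 0.13).

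Of the signal carriers and inhibitors 6 were tested, 4 with higher means. Smad4, the shared partner of the signal-carrying Smads, had a log2 difference of 0.16 (SE 0.12), and Dcn, a matrix proteoglycan that binds TGF-beta, one of 0.03 (SE 0.20), which was -0.15 without wild-type 3. Of 4 tested targets 1 had a higher mean (median log2 difference -0.07), but without wild-type 3 all 4 had (median 0.33). Without that array the signal carriers and inhibitors had a median of -0.03, against 0.07 with it. Id3, a target of bone morphogenetic proteins, differed by -0.10 (SE 0.18), and by 0.10 without wild-type 3. Col1a1, a chain of collagen I, had 1175, 2718, 1575 and 1412 in Myc-null and 1246, 1531 and 3505 in wild-type hearts, and was highest where Gdf10 was highest.

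Part of the matrix genes had the same highest arrays. Of 11 tested fibroblast and valve genes 0 passed in either direction. For 6 of them, Col1a1, Col3a1, Col5a1, Col6a1, Col6a3 and Fbln1, Myc-null 2 and wild-type 3 were the highest arrays, against 13.1% of all units. Of the 6, only Col3a1 was at least 1 (log2) above its median on both. The remaining 5 of the 11 genes did not share these highest arrays. Dcn was lowest of all arrays on wild-type 3 (3129), as was Vcan, a proteoglycan of valve cushions (42.6, against 112 to 256 on the other 6). Eln, the elastin of arteries and valves, had 3079, 3845, 7363 and 8084 in Myc-null and 6023, 7671 and 11254 in wild-type hearts. The list's median log2 difference was -0.04, and 0.29 without wild-type 3. The summed signal of the list was 14098 to 22646 in Myc-null and 19247 to 31685 in wild-type hearts. The list median lay 0.40 above its 7-array median on Myc-null 2 and 0.78 above on wild-type 3. All 4 tested cartilage genes had the same highest arrays, though Sox5 by a narrow margin on wild-type 3 (168, against 164 on wild-type 1). Of these 4, only Col2a1 was at least 1 (log2) above its median on both. The lists were chosen with earlier results of these data known, so nothing is read from these counts. Col2a1, the main cartilage collagen, had 309, 1698, 148 and 93.7 in Myc-null and 105, 134 and 381 in wild-type hearts. Col9a2 was at 606 on Myc-null 2 and 240 on wild-type 3.

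**Figure D2:**
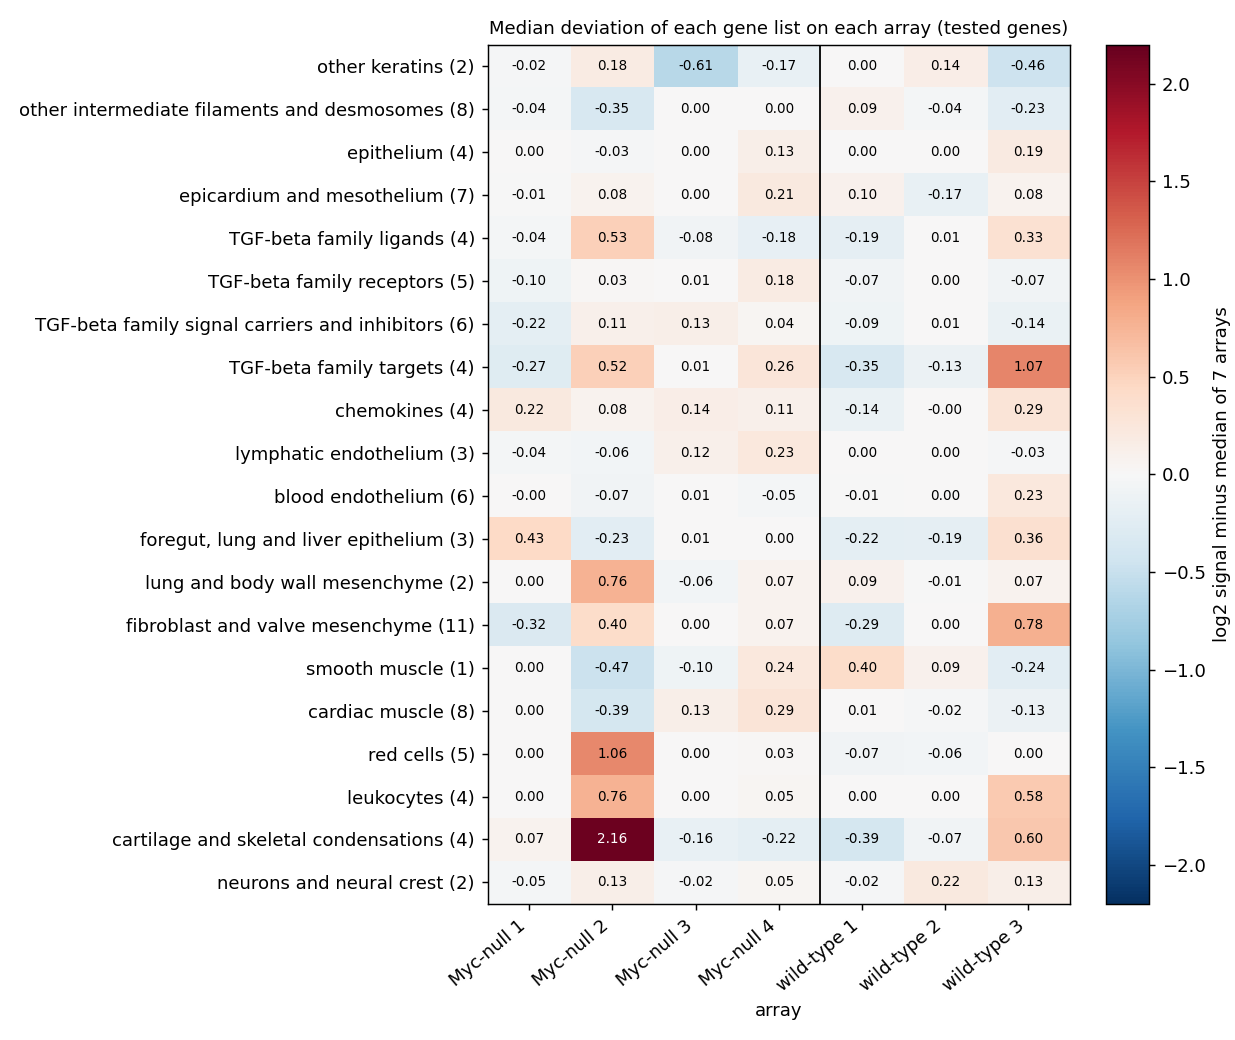
Median deviation of each gene list on each array, in log2 signal minus the gene's median over the 7 arrays, with Myc-null arrays left of the line and wild-type arrays right of it, and the number of tested genes in brackets. The cartilage list reaches 2.16 on Myc-null 2, and the fibroblast and valve list 0.78 on wild-type 3. On Myc-null 2 and wild-type 3 the epicardial list is at 0.08 and 0.08, and the cardiac muscle list at -0.39 and -0.13.

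Cells that make or answer Ccl21 could be read only in part. Ccl21c, a near-identical relative of Ccl21a, had 141, 598, 318 and 107 in Myc-null hearts, against 125, 140 and 982 in wild-type hearts, high on the same arrays. The targets of such close relatives may bind each other's transcripts, so which Ccl21 gene gave the signal is uncertain. No target could be named for Ccr7, and those for Ccl19, the other ligand of Ccr7, and Ackr4, a receptor that removes both ligands, were detected on 0 arrays. Of 15 other chemokines 4 were tested, 0 passed, and Ccl27a, a chemokine of skin, read 170 to 196 in Myc-null and 150 to 168 in wild-type hearts.

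Lymphatic endothelium, a known source of Ccl21, was followed by 3 tested genes of 6 named, with 0 calls and a summed signal of 788 to 1033 in Myc-null and 838 to 991 in wild-type hearts. Prox1, its master transcription factor, which heart muscle also makes, had 271, 204, 298 and 349 in Myc-null hearts, against 383, 274 and 269 in wild-type hearts. It was thus lowest on the 2 arrays with the most Ccl21a, though wild-type 3 (269) was barely below Myc-null 1 (271). Reln, a secreted glycoprotein made by lymphatic vessels, went the other way, with 102, 167, 109 and 77.4 in Myc-null and 91.7, 105 and 163 in wild-type hearts, highest on those same arrays. Vegfc, a growth factor for lymphatic vessels, had a log2 difference of 0.10 (SE 0.18), and -0.03 without wild-type 3. Of 6 blood endothelial genes 0 had Myc-null 2 and wild-type 3 as their highest arrays, against 13.1% of all units, so nothing is read from that. Emcn, a surface protein of capillaries and veins, was lowest on wild-type 3, at 448 against 1534 to 2079 on the other 6. Its log2 difference of 0.72 was 0.09 without that array. Of 4 tested leukocyte genes C1qb, a complement protein of macrophages, read 17.5, 123, 71.2 and 67.0 in Myc-null and 31.9, 25.0 and 156 in wild-type hearts, and Lyz2, a lysozyme, was lowest on wild-type 3, at 166. C1qb had Myc-null 2 and wild-type 3 highest, as had Csf1r, a growth factor receptor of macrophages, at 108 on Myc-null 2 and 129 on wild-type 3, against 22.6 to 62.7 on the others.

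Named genes most like each of the 4 were ranked by Pearson's r of log2 signal over the 7 arrays, among 3355 genes. The points share arrays, and r is given as a description. For Krt8 the closest were H3c2 (0.983), Slc19a1 (0.98), Foxm1 (0.976), Tle1 (0.97) and Plpp3 (0.968), of which H3c2, a histone gene, had 182, 383, 159 and 143 in Myc-null and 222, 232 and 361 in wild-type hearts. Without wild-type 3 the closest to Krt8 was Tgfb3 (0.988). For Krt19 they were Gpr137 (0.991), Ccnq (0.959), Brf2 (0.954), P3h1 (0.952) and Atg13 (0.949), and Gpr137 stayed first without wild-type 3 (0.981). Gpr137 had 907, 905, 732 and 813 in Myc-null and 952, 1017 and 1210 in wild-type hearts, so its groups did not overlap either.

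For Gdf10 the closest were Bcl7a (0.996), Cpxm1 (0.981), Zfyve26 (0.979), Tle1 (0.978) and Unc119b (0.978). Bcl7a, a subunit of SWI/SNF chromatin remodelers, had 628, 808, 653 and 582 in Myc-null and 634, 619 and 814 in wild-type hearts, a far narrower range in the same order of extremes, and it remained first without wild-type 3 (0.997). For Ccl21a they were Hlx (0.994), Ccl21c (0.984), Hectd3 (0.983), C1qb (0.981) and Kcna6 (0.98), but Hlx, a homeobox gene of visceral mesenchyme, was dim, at 25.4, 74.0, 66.5 and 41.1 in Myc-null and 35.2, 45.6 and 83.5 in wild-type hearts. It lay below the floor of 58.2 on 4 of 7 arrays, so its r rests on the 3 others.

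Krt8, Gdf10 and Ccl21a were among 42 units, 15 of them named, that had Myc-null 2 and wild-type 3 as their highest arrays and both at least 1 (log2) above the median. The 12 further named genes are Ccl21c, Col2a1, Col3a1, Col8a2, Dlk1, H3c11, Kank4, Kcna6, Klf5, Mylk, Nlgn2 and Ntn3, listed after their values were seen. Dlk1, a membrane protein of embryonic mesenchyme and endocrine cells, had 2002, 5337, 1285 and 1350 in Myc-null and 1371, 1536 and 4136 in wild-type hearts. Klf5, a transcription factor of epithelia and smooth muscle, had 101, 254, 108 and 91.2 in Myc-null and 98.6, 112 and 336 in wild-type hearts. Mylk, the kinase that activates smooth muscle myosin, had 136, 644, 131 and 94.7 in Myc-null and 118, 69.4 and 333 in wild-type hearts, whereas Acta2, smooth muscle actin, was lowest on Myc-null 2 (749) of the Myc-null hearts and on wild-type 3 (874) of the wild-type hearts.

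**Figure D3:**
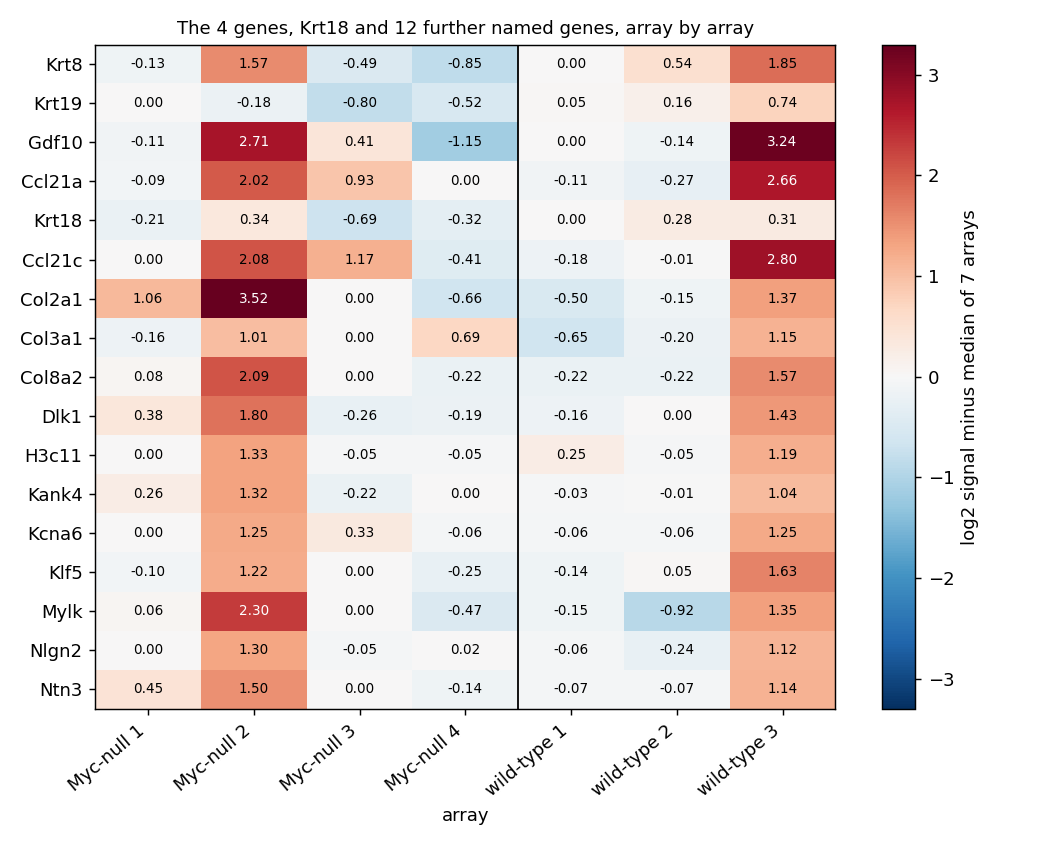
Log2 signal minus the gene's median over the 7 arrays for Krt8, Krt19, Gdf10, Ccl21a, Krt18 and the 12 named genes that were high on both Myc-null 2 and wild-type 3, with Myc-null arrays left of the line. Gdf10 reaches 2.71 on Myc-null 2 and 3.24 on wild-type 3, and Col2a1 3.52 and 1.37 on those arrays, while Krt19 is at -0.18 and 0.74.

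The median of the heart muscle list was -0.39 on Myc-null 2 and -0.13 on wild-type 3. Of 8 tested genes 0 passed. Of these 8, 0 had Myc-null 2 and wild-type 3 as their highest arrays, against 13.1% of all units, so nothing is read from that. Their summed signal was 67740 to 104338 in Myc-null and 66506 to 88110 in wild-type hearts, with the lowest of each group on Myc-null 2 and wild-type 3. Myh7 made up most of that sum, with 43607 on Myc-null 2 and 42504 on wild-type 3.

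**Figure D4:**
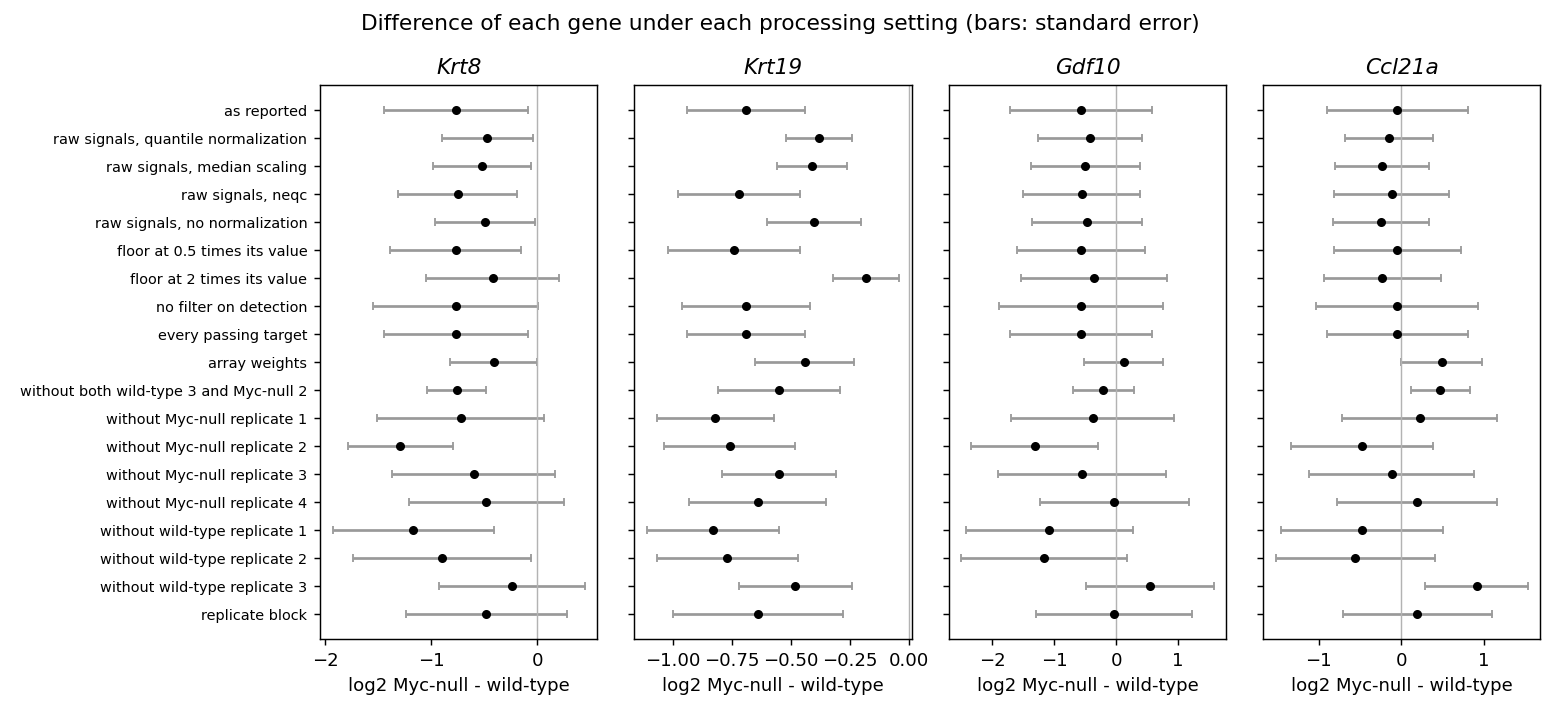
Log2 difference, Myc-null minus wild-type, of the 4 genes as reported and under 18 other settings, with bars of 1 standard error. Krt8 and Krt19 stay below 0 in each, at -1.29 to -0.24 and -0.83 to -0.18, while Gdf10 (-1.32 to 0.54) and Ccl21a (-0.56 to 0.91) lie on both sides of 0.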

How the data were processed

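RNA of 7 heart samples was hybridised to Illumina MouseRef-8 BeadChips. Per the submitters' processing notes the software was BeadStudio 1.5.0.34, and per the file headers BeadStudio 1.5.1.3. The deposited matrix holds intensity that the authors normalized by the rank-invariant method, per the labels. A file for each array gives unnormalized intensity and, as a fraction between 0 and 1, a detection score, per the file headers. The authors' deposited table gives 1 difference score per target. The deposited intensity was a straight line of the raw signal on each array (factors 0.809 to 1.43).

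Genes were named by looking up the number in target identifiers with 1 or 2 leading zeros among mouse gene identifiers (GRCm38.p6 table, 8884 of 9523 matched), which no deposited annotation backs. A target was kept if its detection score reached 0.99 on 3 or more of the 7 arrays (9441 targets). Lower signals were raised to a floor of 58.2 (each array's 5th percentile of detected targets, then the median of these), which understates changes of dim genes, and log2 was taken. The brightest target stood for a named gene (9066 units, 3396 named). Groups came from the sample titles and were compared by limma (version 3.58.1, R 4.3.3) with lmFit and eBayes, 2-sided, with Benjamini-Hochberg adjustment over all units and a threshold of 0.05. The fitting steps were first tested on simulated data. Intervals are at 95%. Normalization, floor, detection filter, array weights, a replicate block and left-out arrays were varied. The genes described, the gene lists and the naming rule were chosen with earlier results of these data known. Named are the 4 genes, their close relatives, the 2 brightest tested genes of each list, the 5 genes most correlated with each of the 4 and some defining cell type markers such as Wt1 and Upk3b. Further genes, such as Cldn4, Nkx2-1, Tbx1, Pax1, Reln, Trf, Vcan, Csf1r, Hba-x and those detected on 1 or 2 arrays, were named after their values were seen. Leaving out Myc-null 2, alone or with wild-type 3, for the gene lists was also chosen after seeing the data. Not every gene so selected is described. 4 bacterial control targets were left out.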

Additional observations from a re-analysis of the deposited data

Results flagged for a closer look

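Of 25 signals and list medians looked at in the 4 Myc-null hearts, 7 had 1 heart standing far from the other 3 by Dixon's ratio, and in all 7 it was Myc-null 2. Chance flags about 1 in 20 such groups, but the 7 share an array, so they are not independent. The genes and lists were also chosen with results of these data known. The count of 7 is therefore no test against that rate. The 3 wild-type hearts are too few for this rule and were not examined by it. Krt8 was at 352 in Myc-null 2, with the nearest Myc-null heart at 108, and Gdf10 was at 937, with the nearest at 190.

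Among the lists, the median log2 deviation in Myc-null 2 was 2.16 for cartilage genes (nearest Myc-null heart 0.07), 1.06 for red cell genes (nearest 0.03), 0.76 for leukocyte genes (nearest 0.05) and 0.76 for lung and body wall mesenchyme, which has 2 tested genes (nearest 0.07). It was low, at -0.35, for intermediate filaments and desmosomes other than keratins (nearest -0.04). The desmosomal protein Pkp2 was at 607 in Myc-null 2, against 910 to 977 in the other Myc-null hearts and 708 to 1003 in wild-type hearts. Not every gene of that list was low in Myc-null 2. Nes was at 407 there, against 129 to 217 on the other arrays, and Jup at 610, against 561 to 823 in the other Myc-null hearts.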

How the results depend on the processing

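By limma, 0 units passed at an adjusted p under 0.05 in each of 18 other settings. The 485 units at an unadjusted p under 0.05 became 188 with no normalization and 311 to 718 when 1 array was left out (311 without Myc-null 2). Krt8 was below 0 in all 18 (-1.29 to -0.24 leaving out 1 array). Krt19 was too (-0.83 to -0.48 leaving out 1 array), but was -0.18 with the floor at 2 times its value, which lies above all its signals but that of wild-type 3, so that the whole difference is that array. Gdf10 was below 0 in 16 of 18 (-1.32 to 0.54 leaving out 1 array, 0.12 with array weights), and Ccl21a in 12 of 18 (-0.56 to 0.91 leaving out 1 array, 0.49 with array weights). Without both Myc-null 2 and wild-type 3 the differences were -0.76 for Krt8, -0.55 for Krt19, -0.21 for Gdf10 and 0.47 for Ccl21a. Samples with the same replicate number are not stated to be paired. Their deviations correlated at 0.17, -0.26 and -0.31, and those of samples with unlike numbers at -0.32 to 0.34. Whether samples with the same number shared a litter or a batch cannot be told from these values. With the replicate number as a block, where Myc-null 4 has no partner, Krt8 was -0.48, Krt19 -0.64, Gdf10 -0.03 and Ccl21a 0.19, with 0 units passing and 370 at an unadjusted p under 0.05. Krt19 and part of the Krt8 and Ccl21a signals lie close to the floor, which limits what a difference between dim arrays can show.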

Other observations

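Lists outside the tissues above also differed between arrays. Of 5 tested red cell genes 0 passed and all 5 had higher means in Myc-null hearts (median log2 difference 0.37), largely through Myc-null 2: without it the median was 0.12, still with all 5 higher. Hba-x, an embryonic alpha-like globin, had 8919, 24307, 5121 and 4388 in Myc-null and 5065, 4614 and 5143 in wild-type hearts. Their summed signal was 84731 to 122152 in Myc-null and 77480 to 92921 in wild-type hearts, and Hbb-b2, an adult beta globin, had 9534, 14100, 11067 and 12639 in Myc-null and 8880, 10612 and 11055 in wild-type hearts. Of 2 tested neural genes 0 passed, and Gap43, a protein of growing axons, read 452 on Myc-null 2 and 452 on wild-type 3, against 354 to 380 in the other Myc-null and 365 and 399 in the other wild-type hearts. Prrx1, a transcription factor of limb and body wall mesenchyme, was detected on wild-type 3 only, at 76.5, and Nefm, a neurofilament, on Myc-null 2 only, at 88.3.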
